A study of Homo sapiens with 6 samples.

Results

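The 5S ribosomal RNA family was taken from the array table as every row with exactly 1 gene symbol beginning with RNA5S, which gave 494 of 67528 transcript clusters (array features that each stand for 1 locus). Rows with identical values on all 6 arrays were counted once, which left 481 distinct rows. Of the 494 rows, 493 carried a symbol of the RNA5SP series, which RefSeq annotates as pseudogenes where a match was found, and 1 carried RNA5S9, which RefSeq annotates as an rRNA gene. RefSeq (GRCh38.p14) held the symbol of 490 rows.

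The 6 arrays measured total RNA of stable lines labelled as HepG2, a liver cancer cell line of hepatoblastoma origin. The 3 vector samples carried the pLKO vector, labelled sh-Vector, and the 3 knockdown samples carried pLKO with the hairpin labelled shSND1-#1, directed at SND1, an RNA-binding nuclease and transcriptional coactivator. Both groups had received 5-Fu (fluorouracil), a pyrimidine analogue that enters RNA as well as blocking thymidylate synthesis, at 6 µg/mL for 48 h. All knockdown samples share 1 hairpin and the labels name no insert in the control vector, so loss of SND1 and other effects of this hairpin cannot be told apart. Untreated cells were not analysed here, so no effect of the drug is given. The labels do not say that the samples of a group were separate cultures, so the p-values rest on the spread among these arrays alone, and that spread may be technical.

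The 5S rRNA is the smallest ribosomal RNA outside mitochondria. RNA polymerase III copies it from tandem repeats on chromosome 1 with the help of transcription factor IIIA, and it joins the proteins RPL5 and RPL11 to form the 5S ribonucleoprotein (RNP), which enters the large ribosomal subunit or, when ribosome assembly is disturbed, binds MDM2 and restrains the breakdown of p53. The genome also holds many dispersed 5S pseudogenes, retrocopies and partial copies whose sequences resemble the gene to differing degrees. A probe designed for such a copy can also bind the abundant 5S rRNA, and this table does not separate the 2 sources, so a bright RNA5SP row is not evidence that this pseudogene is transcribed.

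The deposited values are log2 signals after robust multi-array averaging (RMA). Probe response varies from row to row, so a signal describes its own row and does not rank copies by abundance. Each value is relative to the other RNA on its array, so more 5S RNA per cell and less of other RNA cannot be told apart. Array medians over all clusters lay between 3.58 and 3.73. The cluster annotated with SND1 and SND1-IT1 checked the labels: it fell from 7.28 ± 0.14 on the vector arrays to 5.80 ± 0.10 on the knockdown arrays (SD, n = 3 each), with a limma adjusted p of 0.0166 for the change of -1.49 (SE 0.09). With vector replicate 1, vector replicate 2 or any 1 knockdown array left out, the change of this cluster ran from -1.53 to -1.41 with limma adjusted p-values of 0.0773 to 0.249, past the threshold in none of these fits. Of 10 measured hepatocyte markers, 3 had a mean above 4.81, while ALB and AFP, which HepG2 cells are known for, lay at 1.83 and 1.50. These 2 means stood at percentiles 8.1 and 3.8 of the single-symbol rows. They go against the label HepG2, and the identity of the cells was not tested. All 8 epithelial and cholangiocyte markers lay above 4.81, and 5 of them were lower in the knockdown with an unadjusted p under 0.05 in limma, where 8.56% of bright single-symbol rows were. The hepatocyte marker SERPINA1 (change -0.43) and CD68 of the leukocyte list (mean 8.17, change -0.55) were also lower by this criterion, and 0 endothelial or fibroblast markers were. Their part in the 5S result was not tested.

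The 5S rows lay higher in SND1 knockdown cells nearly throughout the family, by small amounts that no single row carried past the threshold. A row was called bright when its mean over the 6 arrays exceeded 4.81, the median of the 23781 single-symbol rows, and dim otherwise. Of 144 bright distinct rows, 137 had a positive change (knockdown minus vector, log2) and the median change was 0.23, while the 11890 bright single-symbol rows had a median of -0.02 and 41.8% positive. Of 337 dim distinct rows, 290 were positive with a median of 0.17, against a median of 0.03 and 64.1% positive among 11891 dim single-symbol rows. Of the bright rows, 135 were positive after renewed quantile normalization and 131 after centring each array on its median.

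Tested row by row over all 67528 clusters, 0 of the 481 distinct rows had a limma adjusted p under 0.05, where 0.0118% of all clusters did. By limma p-values under 0.05 before adjustment, 167 of all 481 rows were higher and 3 lower, where 5.13% and 4.02% of all clusters were. Of the bright rows, 69 were higher and 0 lower, where 3.48% of bright single-symbol rows were higher and 8.56% lower. Among dim rows, 98 were higher and 3 lower, against 3.52% and 1.96% of dim single-symbol rows. The knockdown and vector groups did not overlap, with the knockdown higher, in 77 bright rows (5.95% of bright single-symbol rows) and 97 dim rows (6.45% of dim ones). Over all 481 rows this count was 174, where 7.36% of all clusters were apart in this direction. The groups did not overlap with the knockdown lower in 1 bright row (19.2%) and 6 dim rows (4.37%). Rows of the family share target sequence and arrays, so they are not independent replicates of this difference.

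**Figure D1:**
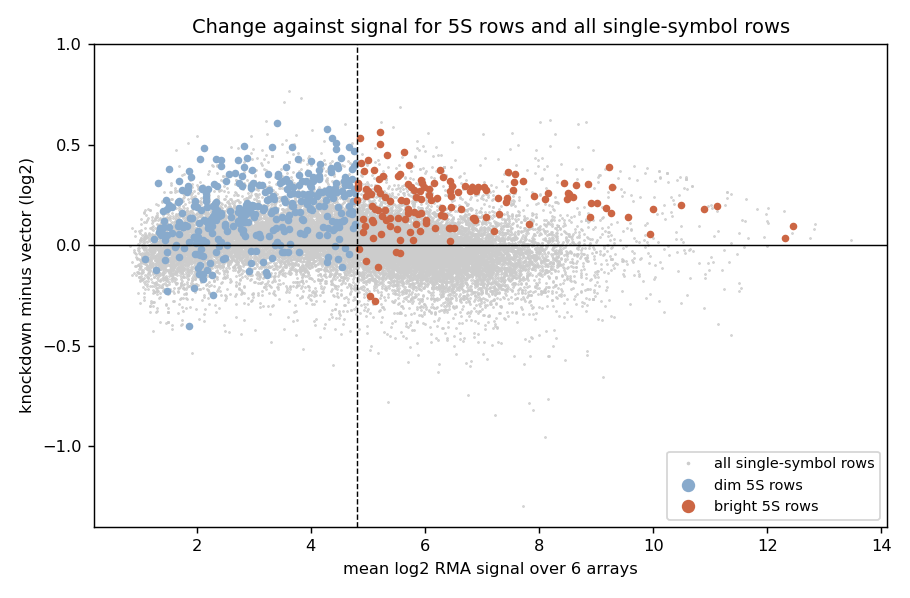
Each point is a row, with its mean log2 signal over 6 arrays on the horizontal axis and its log2 change, knockdown minus vector, on the vertical axis. Grey points are all 23781 single-symbol rows, light blue points the 337 dim and orange points the 144 bright distinct 5S rows, and the dashed line marks the split at 4.81. The 5S rows form a band above 0 with a median of 0.23 among bright and 0.17 among dim rows.

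The joined rows of the chromosome 1 repeat give the nearest measurement of the 5S genes themselves. The rule left them out because each of these 16 rows carries the joined symbols of 16 genes (RNA5S1 to RNA5S17 without RNA5S9), and all 16 hold the same values. Vector replicates 1 to 3 had log2 signals of 11.99, 11.86 and 11.94, and knockdown replicates 1 to 3 had 12.09, 12.02 and 12.11. The lowest knockdown array lay just above the highest vector array. The change was 0.15 (SE 0.07, 1.11-fold), with an unadjusted limma p of 0.0635 and an adjusted p of 0.567, so it did not pass.

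RNA5S9, the 1 gene of the repeat with a row of its own, had a change close to that of the joined rows. The order of its vector arrays differed, since replicate 1 was the lowest here and the highest in the joined rows. Its log2 signals were 10.76, 10.79 and 10.86 on vector replicates 1 to 3 and 10.95, 10.90 and 11.11 on knockdown replicates 1 to 3. The groups did not overlap, and the nearest arrays were vector replicate 3 and knockdown replicate 2. The change was 0.18 (SE 0.08, 1.13-fold, limma adjusted p = 0.548).

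The 15 brightest distinct rows, RNA5S9 among them, spanned mean signals of 8.89 to 12.45. All 15 changes were positive, from 0.04 to 0.39, and the groups were apart in 14, where 5.95% of bright single-symbol rows were apart with the knockdown higher. Their limma adjusted p-values were 0.369 to 0.903, and 7 were higher at an unadjusted p under 0.05, where 3.48% of bright single-symbol rows were. The smallest changes in this set were those of RNA5SP243, RNA5SP298 and RNA5SP149.

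RNA5SP149 on chromosome 3, the brightest row, had signals of 12.41, 12.38 and 12.43 on the vector arrays and 12.49, 12.47 and 12.54 on the knockdown arrays. The groups did not overlap, but the change was 0.09 (SE 0.06) and turned to -0.012 after renewed quantile normalization. RNA5SP243 on chromosome 7 had 12.27, 12.29 and 12.31 on the vector arrays and 12.31, 12.23 and 12.45 on the knockdown arrays, so the groups overlapped. Its change of 0.04 (SE 0.08) turned to -0.019 with arrays centred on their medians and to -0.0038 after renewed quantile normalization. RNA5SP298 on chromosome 10 had 9.91, 9.92 and 9.93 on the vector arrays and 9.98 on each knockdown array, a change of 0.06 (SE 0.06). RNA5SP149 and RNA5SP298 were tight within each group with a small distance between groups, whereas the knockdown arrays of RNA5SP243 (SD 0.11) spread more widely than its change.

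RNA5SP202 on chromosome 6 had 11.04, 10.98 and 11.07 on the vector arrays and 11.25, 11.12 and 11.30 on the knockdown arrays, a change of 0.19 (SE 0.07). RNA5SP199 on chromosome 5 had 10.34, 10.38 and 10.43 on the vector arrays and 10.55, 10.48 and 10.72 on the knockdown arrays, a change of 0.20 (SE 0.08). In both rows knockdown replicate 2 was the lowest knockdown array and replicate 3 the highest, the same order as in RNA5S9. RNA5SP325 on chromosome 10 had 9.17, 9.03 and 9.19 on the vector arrays and 9.40, 9.37 and 9.49 on the knockdown arrays, a change of 0.29 (SE 0.08, limma adjusted p = 0.369). RNA5SP19 on chromosome 1 had the largest change of the 15 brightest rows, 0.39 (SE 0.12). Its vector arrays were widely spread, at 8.81, 9.003 and 9.29, while its knockdown arrays lay at 9.38, 9.41 and 9.48.

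The remaining rows among the 15 brightest had changes of similar size. RNA5SP150 on chromosome 3 had a change of 0.18, RNA5SP77 on chromosome 1 of 0.16 and RNA5SP226 on chromosome 6 of 0.18. RNA5SP493 on chromosome 22 had a change of 0.21, RNA5SP399 on chromosome 15 of 0.21 and RNA5SP370 on chromosome 12 of 0.14. In each of these 6 rows every knockdown array lay above every vector array, where 5.95% of bright single-symbol rows were apart in this direction. They are part of the 14 already counted among the 15 brightest.

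**Figure D2:**
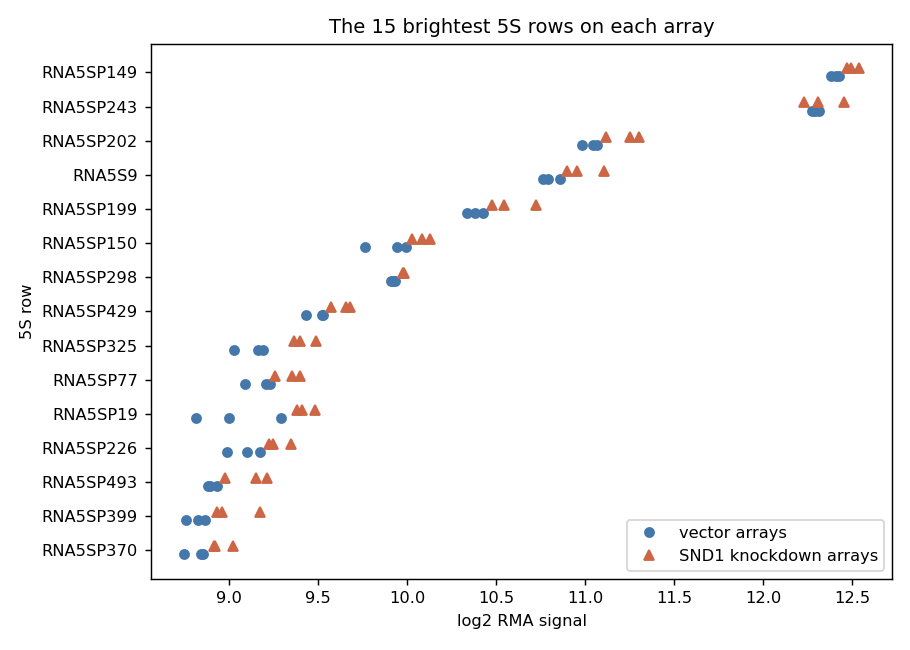
The horizontal axis is the log2 RMA signal and each line of points is 1 of the 15 brightest distinct 5S rows. Blue circles are the 3 vector arrays and orange triangles the 3 knockdown arrays. The groups are apart in 14 of the 15 rows, RNA5SP243 being the exception, and RNA5SP19 shows the widest spread of vector arrays (8.81 to 9.29).

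The largest positive changes among bright rows were in rows of moderate signal. RNA5SP478 on chromosome 20 had 4.92, 4.73 and 5.15 on the vector arrays and 5.47, 5.66 and 5.37 on the knockdown arrays, a change of 0.56 (SE 0.12, 1.48-fold, limma adjusted p = 0.318). RNA5SP53 on chromosome 1 had 4.57, 4.44 and 4.78 on the vector arrays and 5.12, 5.06 and 5.20 on the knockdown arrays, a change of 0.53 (SE 0.10, 1.45-fold, limma adjusted p = 0.258). RNA5SP512 on chromosome X had a change of 0.50, RNA5SP349 on chromosome 11 of 0.46 and RNA5SP476 on chromosome 20 of 0.45. The groups did not overlap in any of these 5 rows, where 5.95% of bright single-symbol rows were apart with the knockdown higher. The 5 rows were picked for the size of their change, so this adds no separate evidence.

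Only 7 bright rows had a negative change, and none of them had an unadjusted limma p under 0.05. RNA5SP217 on chromosome 6 had 5.07, 5.56 and 5.16 on the vector arrays and 5.09, 4.36 and 5.50 on the knockdown arrays, so its change of -0.28 (SE 0.27) came with the low value of knockdown replicate 2, and it was 0.03 without that array. RNA5SP410 on chromosome 16 had a change of -0.25 (SE 0.17) with overlapping groups, and -0.068 without vector replicate 3. RNA5SP82 had -0.11 (0.0045 without vector replicate 1), RNA5SP434 -0.08 and RNA5SP155 -0.04. RNA5SP434 on chromosome 17 was the 1 bright row whose knockdown arrays all lay below its vector arrays, at 4.90, 4.93 and 4.96 against 5.04, 5.02 and 4.96, with the nearest arrays equal to 2 decimals.

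Among dim rows, RNA5SP93 on chromosome 2 had the lowest p of the whole family. Its signals were 4.25, 4.17 and 4.14 on the vector arrays and 4.74, 4.59 and 4.75 on the knockdown arrays, a gap larger than the spread within either group. The change was 0.51 (SE 0.08, 1.42-fold, limma adjusted p = 0.152 over all clusters). When the fit and the adjustment were limited to the 23781 single-symbol rows, where 0.147% of rows passed, its limma adjusted p was 0.0488 and it was the 1 member past the threshold. RNA5SP354 on chromosome 12 had the largest change of the family, 0.61 (SE 0.14, limma adjusted p = 0.333), with 3.04, 2.96 and 3.32 on the vector arrays and 3.47, 3.70 and 3.96 on the knockdown arrays. RNA5SP255 had a change of 0.58, RNA5SP187 of 0.53 and RNA5SP178 of 0.49.

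The most negative dim rows lay near the bottom of the signal range. RNA5SP272 on chromosome 8 had 1.82, 2.34 and 2.03 on the vector arrays and 1.55, 1.78 and 1.64 on the knockdown arrays, a change of -0.40 (SE 0.13, limma adjusted p = 0.45). RNA5SP235 had a change of -0.25 and RNA5SP327 of -0.23, and these 3 rows were the dim rows lower at an unadjusted limma p under 0.05. RNA5SP470 had -0.21 and RNA5SP153 -0.17, both with overlapping groups. Without vector replicate 3 the change of RNA5SP470 was -0.019, and without knockdown replicate 2 that of RNA5SP153 was -0.012.

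The median change was smallest in the dimmest rows. The median change was 0.09 in 59 rows with a mean up to 2, 0.14 in 107 rows from 2 to 3, 0.19 in 87 rows from 3 to 4 and 0.26 in 84 rows from 4 to the split. Above the split it was 0.22 in 73 rows up to 6 and 0.23 in 32 rows from 6 to 7. It was then 0.24 in 15 rows from 7 to 8, 0.25 in 11 rows from 8 to 9 and 0.18 in 13 rows above 9. All 71 rows with a mean above 6 had a positive change. Over the same ranges the median of all single-symbol rows stayed between -0.06 and 0.05. Just above the split lay RNA5SP441, RNA5SP84 and RNA5SP247 at means of 4.82, 4.83 and 4.83 with changes of 0.23, 0.31 and 0.29. Just below lay RNA5SP289, RNA5SP425 and RNA5SP151 at 4.796, 4.78 and 4.78 with changes of 0.41, 0.11 and 0.26.

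The 3 vector arrays differed among themselves by as much as the groups did. The median signal of the bright 5S rows was 5.77, 5.86 and 6.01 on vector replicates 1 to 3 and 6.20, 6.04 and 6.12 on knockdown replicates 1 to 3. The 3 vector arrays spanned 0.24, and the lowest knockdown array exceeded the highest vector array by 0.03. For the dim rows the medians were 2.85, 2.95 and 3.10 on the vector arrays and 3.21, 3.08 and 3.12 on the knockdown arrays, and here the groups overlapped. Vector replicate 1 was the lowest of all 6 arrays in 94 of 144 bright rows, and vector replicate 3 exceeded it in 124. Knockdown replicate 2 exceeded vector replicate 3 in 99 of 144 bright rows with a median difference of 0.05, the smallest of the 9 pairings of a knockdown with a vector array. Knockdown replicate 3 exceeded vector replicate 1 by a median of 0.34, the largest. Without vector replicate 1 the median change of the bright rows was 0.16 and 32 in place of 69 were higher at an unadjusted limma p under 0.05. That number was 43 when vector replicate 2 was left out, 40 for knockdown replicate 1 and 41 for knockdown replicate 3, and with arrays centred it was 42. The share of other rows called in these fits was not counted, so the lower numbers are not set against a background.

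Bright rows of several other classes of short structured RNA also lay mostly higher in the knockdown. The array medians of U6 and 7SK shared the order of the 5S medians on the vector arrays, while those of the small nucleolar RNAs and the Y RNAs did not. The Y RNAs, also RNA polymerase III transcripts, had bright medians of 5.38, 5.30 and 5.22 on vector replicates 1 to 3. U6, the RNA polymerase III transcript of the spliceosome that also has many genomic copies, had 44 bright distinct rows with a median change of 0.34, of which 41 were higher and 0 lower by the same unadjusted criterion. Their median signals were 7.34, 7.54 and 7.63 on vector replicates 1 to 3 and 7.87, 7.84 and 7.98 on the knockdown arrays. The 6 bright rows of 7SK, the RNA that holds the elongation factor P-TEFb inactive, had medians of 5.84, 6.09 and 6.20 on the vector and 6.24, 6.32 and 6.30 on the knockdown arrays. Their median change was 0.19 and 5 of 6 were positive, but 0 were higher or lower by the unadjusted criterion. For the bright medians of 5S, U6 and 7SK the vector arrays stood in the same order, with replicate 1 lowest and replicate 3 highest. The order of the knockdown arrays differed between all 3. The joined rows of the chromosome 1 repeat did not have this vector order, and vector replicate 1 was their highest vector array. The 58 bright distinct rows of C/D box small nucleolar RNAs (SNORD), most of which RNA polymerase II transcribes within host introns, had a median change of 0.22, with 29 higher and 0 lower by that criterion. Their array medians ran the opposite way on the vector arrays, at 7.63, 7.62 and 7.43, and overlapped with the 7.78, 7.63 and 7.80 of the knockdown arrays. The 54 bright distinct rows of H/ACA box small nucleolar RNAs (SNORA) had a median change of 0.22, with 31 higher and 0 lower. Their array medians were 7.24, 7.03 and 7.005 on the vector arrays, also opposite to the 5S order, and 7.12, 7.07 and 7.17 on the knockdown arrays. The mean of these medians was only 0.03 higher in the knockdown, against the median change of 0.22 over rows. An array median of a small class depends on which rows lie mid-list, so its order need not be that of the rows. Differences between single arrays were taken row by row for 5S alone. Among dim rows the median change was 0.11 for U6, 0.13 for 7SK and 0.12 for SNORA. Dim SNORD rows had a median of -0.01, with 51 of 117 positive. The 1 single-symbol row beginning with RN7SL had a change of 0.03 with overlapping groups.

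The whole array also shifted in part with the 5S rows. The median over all 67528 clusters was 3.58, 3.61 and 3.69 on vector replicates 1 to 3 and 3.73, 3.66 and 3.65 on the knockdown arrays, lowest on vector replicate 1 and highest on knockdown replicate 1 as for the 5S medians. With each array centred on its own median, the median change of bright 5S rows was 0.17 and that of dim rows 0.11, while that of all clusters was -0.04. The part of the array shift, of RNA quality and of the recovery of short RNAs in the 5S difference was not tested.

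**Figure D3:**
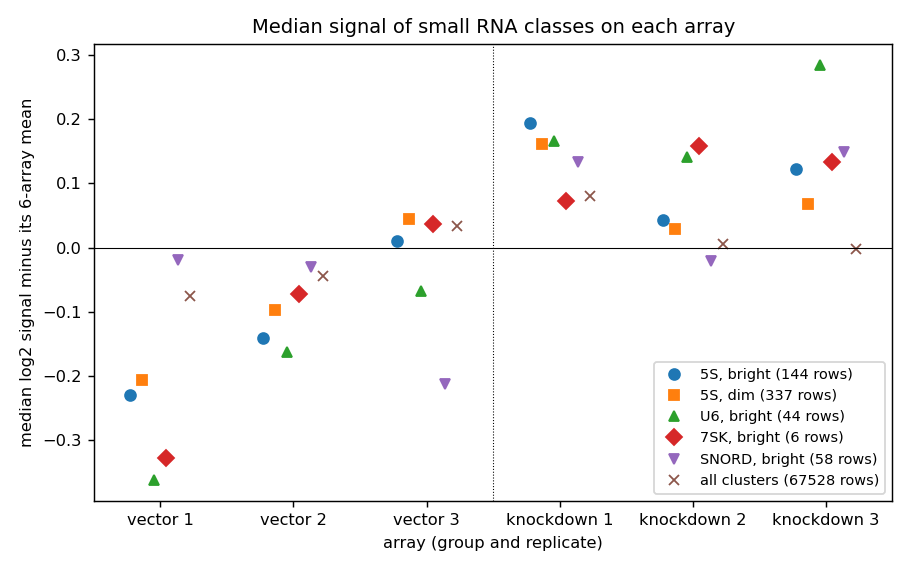
The horizontal axis gives the 6 arrays by group and replicate, and the vertical axis the median log2 signal of a class minus the mean of its 6 array medians. Symbols are the bright and dim 5S rows, the bright U6, 7SK and SNORD rows and all clusters. The 5S medians are lowest on vector replicate 1 (5.77 for bright rows) and highest on knockdown replicate 1 (6.20). U6 and 7SK share the order of the vector arrays, while SNORD and the Y RNAs, which are not drawn, run the opposite way there. These are medians of signals over unlike rows, so their order need not be that of the rows.

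The 5S copies are scattered over the genome. Cluster identifiers placed distinct rows on every autosome and both sex chromosomes, with 47 on chromosome 1, 38 on chromosome 2 and 29 on chromosome 3. Chromosome 16 held 28, of which 19 were bright, whereas on chromosome 1 12 of 47 were bright. On chromosome 16, 17 clusters with consecutive identifiers carried 5S symbols from RNA5SP406 to RNA5SP423, the one such run listed with at least 3 distinct member rows. Its 16 distinct member rows had mean signals of 3.63 to 8.53, 14 positive changes and a median change of 0.12, of which 4 were past the unadjusted criterion, all higher, where 5.13% of all clusters were. The 19 bright rows on chromosome 16 had a median change of 0.16, positive in 18, and the bright rows off it had 0.23, positive in 119 of 125.

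Identical values showed which copies the array does not separate. There were 10 groups of identical rows, 7 of 2 rows and 3 of 3 rows, all among dim rows. RNA5SP253, RNA5SP254 and RNA5SP342 lie on chromosomes 8, 8 and 11 and shared all values, as did RNA5SP59 on chromosome 1 and RNA5SP100 on chromosome 2. RNA5SP498 had a row on X and one on Y with the same values. Chromosome 10 held 3 such groups, made of the rows RNA5SP310 to RNA5SP317, with changes of -0.07, -0.0035 and 0.06. A change in such rows belongs to the group and not to 1 locus.

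Many copies lie inside other genes, and most had a larger change than the gene around them. By RefSeq (GRCh38.p14), 76 of 144 bright rows (52.8%) and 151 of 337 dim rows (44.8%) lie within the span of a protein-coding gene. Bright copies within protein-coding genes had a median change of 0.22, and those outside any annotated gene had 0.24. For 70 bright copies the surrounding gene had a single-symbol row of its own, with a median change of 0.00, and the copy had the higher change in 67 of 70. This count largely restates the difference between 5S rows and other rows, so it adds no separate evidence. GARIN1A, GREB1 and SLC37A3 each entered it with more than 1 copy. The 33 bright copies whose surrounding gene had a negative change had a median of 0.26 themselves, and the 37 whose surrounding gene had a positive change had 0.18.

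RNA5SP429 lies within CDH1, the gene of the adhesion protein E-cadherin, and gives the widest contrast. CDH1 fell by 0.95 on the log2 scale (SE 0.08, limma adjusted p = 0.0316), the 1 surrounding gene past the threshold. With vector replicate 1, vector replicate 2 or any 1 knockdown array left out, 0 clusters passed in limma, CDH1 included. RNA5SP429 had 9.52, 9.43 and 9.53 on the vector arrays and 9.66, 9.57 and 9.68 on the knockdown arrays, a change of 0.14 (SE 0.07, limma adjusted p = 0.583). No vector array reached the lowest knockdown array. This pair was singled out after its values were seen.

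**Figure D4:**
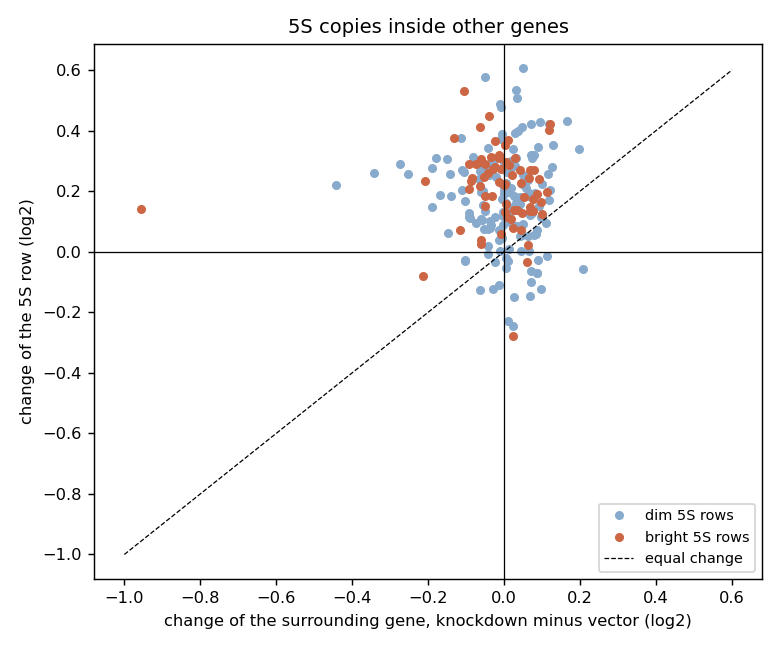
Each point is a distinct 5S row that lies inside another annotated gene with a single-symbol row, with the gene's log2 change on the horizontal axis and the 5S row's change on the vertical axis. Orange points are the 70 bright and light blue points the 155 dim copies, and the dashed line marks equal change. Of the bright copies 67 lie above that line, and the point far to the left is RNA5SP429 within CDH1 (-0.95).

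The genes that make, bind or assemble 5S rRNA did not pass the test. Of 40 listed genes, 37 had a single-symbol row, and 0 had a limma adjusted p under 0.05. By the unadjusted criterion 1 was higher and 1 lower, where 8.76% of all single-symbol rows were past it in either direction. Their median change was -0.02.

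Among the partners of 5S RNA, RPL11, the ribosomal protein that joins RPL5 in the 5S RNP, had 7.42 ± 0.06 on the vector and 7.40 ± 0.09 on the knockdown arrays (SD, n = 3 each), a change of -0.02 (SE 0.08). RPL5 lies on a row shared with 2 small nucleolar RNAs of its introns, which had a change of 0.02 (SE 0.07). MDM2, the ubiquitin ligase that the free 5S RNP binds, had 9.92 in both groups (SE of the change 0.07). RPF2 and RRS1, which deliver the 5S RNP to the pre-ribosome, had changes of 0.16 (SE 0.09) and 0.13 (SE 0.11). SSB, the La protein that binds the 3′ ends of new RNA polymerase III transcripts, had 0.17 (SE 0.10), and RO60, which binds misfolded 5S RNA, had 0.12 (SE 0.09). Of the 9 measured partners, 0 were past an unadjusted limma p of 0.05 in either direction, where 8.76% of all single-symbol rows were.

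Among the transcription factors, GTF3A, the transcription factor IIIA that recognises the promoter inside the 5S gene, had 7.82 ± 0.07 on the vector and 7.70 ± 0.06 on the knockdown arrays (SD, n = 3 each), a limma change of -0.12 (SE 0.07) with an adjusted p of 0.645. The promoter-binding complex TFIIIC includes GTF3C2, which had the most negative change of the list, -0.27 (SE 0.08, limma adjusted p = 0.408). BDP1, a subunit of TFIIIB, had 0.13 (SE 0.08), and MAF1, the repressor of RNA polymerase III, had -0.08 (SE 0.07). Of 17 measured polymerase subunits, POLR3G, which stands in for POLR3GL in stem and tumour cells, had the largest change, 0.19 (SE 0.07, limma adjusted p = 0.514). POLR3A, the largest subunit, had -0.04 (SE 0.08). The 95% confidence intervals of the 37 changes reached 0.14 to 0.25 to either side, about the size of the 5S changes.

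**Figure D5:**
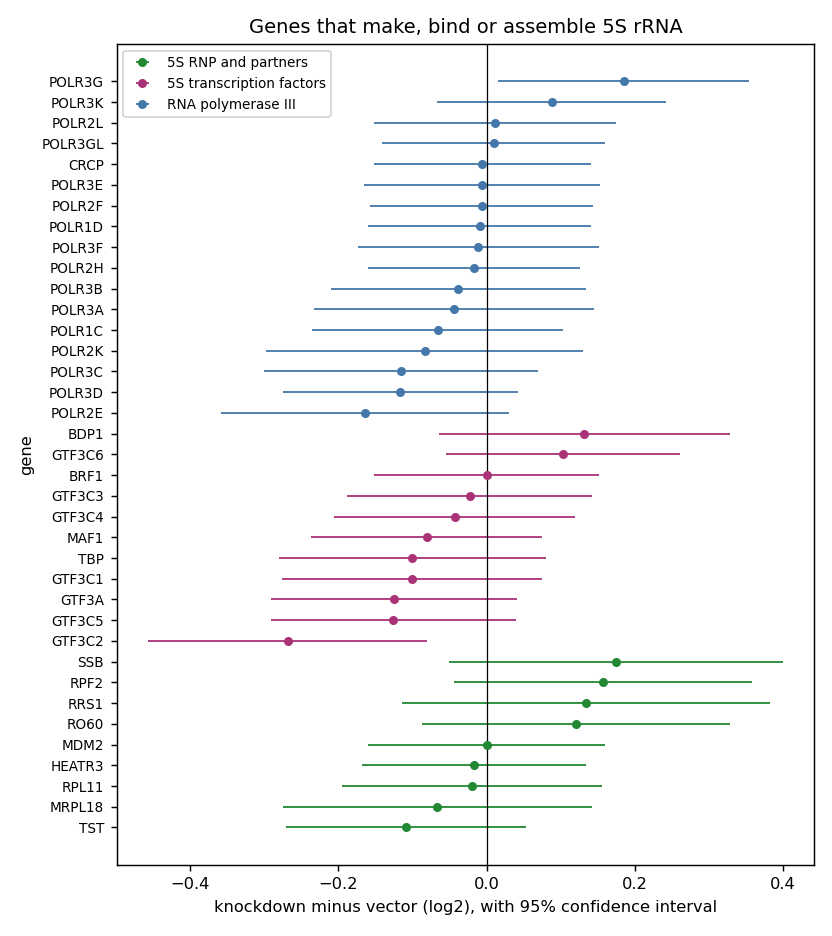
The horizontal axis is the log2 change, knockdown minus vector, with its 95% confidence interval from limma, and each line is 1 of 37 measured genes. Green marks the 5S RNP and its partners, purple the transcription factors and blue the polymerase subunits. The intervals of GTF3C2 (-0.27) and POLR3G (0.19) leave out 0, and the others include it.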

How the data were processed

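The deposited values are log2 signals per feature, made by the authors with RMA, per the submitters' processing notes. Its version is not given in the sources used here. Scanner files and detection calls were not used. Of 70523 features, the 2995 that are no transcript cluster did not enter. Symbols came from GEO's platform annotation. Groups came from the sample titles.

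Knockdown minus vector was fitted to all 67528 clusters and 6 arrays by limma 3.58.1 (lmFit, eBayes; R 4.3.3). Group was the single term. P-values were Benjamini-Hochberg adjusted over all clusters, and 0.05 was the threshold. Standard errors are limma's moderated ones and each ± is the SD of 3 arrays. The number of arrays limits the precision. The fit was tested on simulated data.

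Named rows were RNA5S9, the 15 brightest, the 5 most positive and 5 most negative changes of bright and of dim rows, 3 to either side of the split, and RPL5, RPL11, GTF3A and the largest changes of the machinery list. MDM2, RRS1, RO60, BDP1, MAF1, POLR3A and the surrounding genes were chosen after their values were seen. The members and lists were chosen with earlier results of these data known. Deviations of same-numbered arrays from their group means correlated at -0.36, 0.11 and -0.48 over bright single-symbol rows. With 3 arrays per group these values cannot decide whether same-numbered samples were handled together, and the sample titles do not say so. The main fit therefore used no pairing. Figures were drawn with matplotlib 3.10.9. No 5S sequence is printed.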

Additional observations from a re-analysis of the deposited data

How the results depend on the processing

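The median change of bright 5S rows stayed positive in every alternative tried, from 0.16 without vector replicate 1 to 0.26 without vector replicate 3, and was 0.17 with arrays centred. That of dim rows ran from 0.10 with a floor at the 30th percentile to 0.20. The number of distinct 5S rows past the threshold was 0 in every alternative except the fit limited to single-symbol rows, which gave 1 (RNA5SP93), and the machinery list gave 0 in all. The number at an unadjusted limma p under 0.05 was set against other rows in the main fit alone. That number was 170 (167 higher), 111 with arrays centred (107 higher), and 102 to 194 when 1 array was left out. With the replicate number as a block it was 141, and the SND1 cluster (-1.49) had a limma adjusted p of 0.142; with the floor, -1.49 and 0.178. Leaving out 1 array gave SND1 changes of -1.55 to -1.41. The cause was not tested. The fit limited to single-symbol rows gives no SND1 value, since its row has 2 symbols. Of the named rows, 8 comparisons changed sign: RNA5SP149 (-0.012, quantile), RNA5SP243 (-0.0038 quantile, -0.019 centred, -0.024 to 0.088 leaving out 1 array), RNA5SP470 (0.061, array weights) and, leaving out 1 array, RNA5SP155 (-0.12 to 0.033), RNA5SP217 (-0.54 to 0.030) and RNA5SP82 (-0.21 to 0.0045). Adding 2 distinct 5S rows with several symbols, an alternative chosen after seeing the data, gave a bright median of 0.22 and 0 calls.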

Other observations

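Rows of the other ribosomal RNAs are few. The 6 rows of 5.8S pseudogenes (symbols RNA5-8SP2 to RNA5-8SP7) had changes of -0.10 to 0.27 with a median of 0.20, and 5 of the 6 were positive. RNA5-8SP5 had the largest, 0.27 (SE 0.09, limma adjusted p = 0.45). It was the 1 row of the 6 with an unadjusted limma p under 0.05, where 8.76% of all single-symbol rows were past it in either direction. The row annotated with the 5.8S gene RNA5-8SN5 and another locus had 7.78 ± 0.11 on the vector and 7.69 ± 0.04 on the knockdown arrays (SD, n = 3 each), a change of -0.08 (SE 0.08).

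A further 7 5S copies share a row with another gene and were outside the rule, with changes of -0.13 to 0.23, of which 5 were positive. The Y RNA rows (RNY), of small RNA polymerase III transcripts bound by RO60, had 12 bright distinct rows with a median change of 0.20, all 12 positive. Of them, 3 were higher at an unadjusted limma p under 0.05, where 3.48% of bright single-symbol rows were. Their array medians, 5.38, 5.30 and 5.22 on the vector and 5.39, 5.37 and 5.56 on the knockdown arrays, ran opposite to the 5S medians on the vector arrays. With 12 rows, the order of such medians need not be that of the rows.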
